A study of Homo sapiens with 4 samples.

Results

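The 10 genes described here, APOA1, APOA2, APOB, APOC1, APOC3, APOE, APOH, APOM, MTTP and LCAT, encode apolipoproteins, the transfer protein that loads lipid onto APOB, and the enzyme that matures high-density lipoprotein. They were taken as the rows of the deposited tables whose gene symbol is one of these names, 10 of 44591 genes, by name and not by a threshold on a measured value. The libraries were made from cells labelled HepG2, an established human liver cancer line, that had received either a control siRNA (siNC) or siRNA to the long noncoding RNA LINC01186 (siLINC01186), known as SALIS in the study. There were 2 libraries per group, named here siNC and siLINC01186 replicates 1 and 2. Cells at about 70% confluency were transfected, kept without serum for 6 h and then grown in medium with 10% serum for 24 h before RNA was taken. By the study's legend the repeats were biological, with one siNC but a different oligo against LINC01186 in each. The siLINC01186 group therefore mixes oligos, and which library holds which oligo is not in the labels. Its methods describe poly(A) RNA enriched with oligo-dT and read as paired ends. For each gene and library a read count and a TPM value were deposited, the latter being the count divided by gene length and scaled to 1000000 per library.

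Lipoproteins carry cholesterol and triglyceride through blood as particles coated with apolipoproteins, and the hepatocyte is the main source of most of these proteins. In the secretory pathway the microsomal triglyceride transfer protein, encoded by MTTP, loads lipid onto APOB, and the particle leaves the cell as very-low-density lipoprotein. APOA1 and APOA2 are the main proteins of high-density lipoprotein, whose cholesterol LCAT esterifies, and the smaller APOC1, APOC3 and APOE move between particles and control how they are broken down and taken up. HepG2 cells are commonly used as a secreting liver model for these particles.

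The total read counts were between 14968958 and 17297245 per library. LINC01186, the siRNA target, was counted 15 times in siNC replicate 1 and 14 times in siNC replicate 2, against 12 and 14 times in siLINC01186 replicates 1 and 2. The rate ratio of siLINC01186 to siNC was 0.920, with a 95% interval of 0.520 to 1.62 that covers counting error only. These counts thus showed no lower target level, and ratios under 0.520 lay outside that interval. By qPCR the study reported less SALIS in HepG2 cells after siRNA. Why the read counts differ from this was not tested. The noncoding gene MIR6087 took between 1.16% and 13.8% of the summed TPM of a library, with both siLINC01186 libraries (13.8% and 8.69%) above both siNC libraries (1.16% and 1.91%). It lowers the TPM of every other gene in proportion, so that comparisons between libraries were made on counts and TPM was kept for levels between genes. Mitochondrial genes took 3.70% to 4.49% of the counts.

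The label HepG2 was compared with 10 markers of that line. The keratins KRT8 and KRT18 had between 12963 and 24051 counts in every library. ALB, which encodes serum albumin, had 0 counts in both replicate 1 libraries, 15 in siNC replicate 2 and 14 in siLINC01186 replicate 2. TTR was listed at 0 in 3 of the 4 libraries, with 3 counts in siLINC01186 replicate 2. The 7 secreted or oncofetal markers (ALB, AFP, TF, SERPINA1, TTR, FGB and GPC3) summed to 3 counts in siNC replicate 1, 9 in siLINC01186 replicate 1, 69 in siNC replicate 2 and 56 in siLINC01186 replicate 2. The defining secreted markers of the labelled line were therefore at or near the floor, here 3 counts per library, in the replicate 1 libraries and low in the replicate 2 libraries. The libraries are called below by their labels, and no other cell type is assigned to them.

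The promoters of 3 members are shown. MTTP and APOH are the assembly gene and a liver-secreted member without any count in replicate 1, and APOM was above the floor in every library. RefSeq promoter sequences were matched for 6 of the 10 members, APOA2, APOC1, APOE, APOH, APOM and MTTP. The 250 bases before the start are given 5′ to 3′ on the gene's own strand, in build GRCh38.p14. Capitals mark matches to 5 short motifs searched on both strands.
APOH, chr17:66229416-66229665, minus strand: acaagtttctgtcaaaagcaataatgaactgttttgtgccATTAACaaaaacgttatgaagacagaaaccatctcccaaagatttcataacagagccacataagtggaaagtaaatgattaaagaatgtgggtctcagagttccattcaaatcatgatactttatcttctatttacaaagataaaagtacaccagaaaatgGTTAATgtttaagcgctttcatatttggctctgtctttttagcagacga
MTTP, chr4:99574574-99574823, plus strand: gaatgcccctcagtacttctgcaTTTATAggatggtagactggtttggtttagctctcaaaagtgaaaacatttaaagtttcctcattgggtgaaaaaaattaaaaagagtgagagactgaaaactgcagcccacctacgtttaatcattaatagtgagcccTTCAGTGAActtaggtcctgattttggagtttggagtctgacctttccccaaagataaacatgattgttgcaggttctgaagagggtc
APOM, chr6:31655644-31655893, plus strand: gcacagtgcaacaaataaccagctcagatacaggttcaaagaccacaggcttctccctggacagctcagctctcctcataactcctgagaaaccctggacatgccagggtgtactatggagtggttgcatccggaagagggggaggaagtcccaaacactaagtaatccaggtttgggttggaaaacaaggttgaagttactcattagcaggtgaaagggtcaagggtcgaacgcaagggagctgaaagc
The motifs were the TATA box TATAAA, the HNF4 core CAAAGTCC, the HNF1 core GTTAAT, the C/EBP site TTGCNNAA and the STAT site TTCNNNGAA. Over all 35116 promoters of the table, counting 250 bases before and 50 after the start, they occurred in 11.5%, 1.20%, 6.88%, 10.5% and 7.66%, respectively. The APOH promoter held the HNF1 core at -49 and its reverse complement at -210, counted from the start. HNF1 and HNF4 are families of transcription factors that drive liver genes. The MTTP promoter, one of 2 starts in the table and the one with matches, held a reverse-strand TATA match at -227 and one STAT match at -88. The letters of the 5 motifs were not in the APOM window, nor in those of APOA2, APOC1 and APOE. APOH and MTTP, both shown, were thus the only members with matches. APOA2 also had no count in replicate 1 and is not shown, so the promoters shown give no contrast by level. These matches are descriptions of the letters and no test of binding.

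The siNC libraries give the baseline level. LCAT, the enzyme that esterifies cholesterol on high-density lipoprotein, had the most reads of the 10 genes in 3 of the 4 libraries. Its level was 10.8 ± 1.22 TPM (SD, n = 2) in siNC, rank 9077 of 44591 genes. APOE, a ligand of lipoprotein receptors, followed at 5.91 ± 2.71 TPM (SD, n = 2), rank 11227. APOM, a lipocalin of high-density lipoprotein that carries sphingosine 1-phosphate, was at 2.62 ± 0.528 TPM (SD, n = 2), rank 13961. The siNC libraries of these 3 genes did not overlap with those of the next gene in the order. They were also the only members above 3 counts in all 4 libraries.

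The remaining 7 members overlapped in their siNC libraries and have no order among themselves. The mean TPM in siNC was 1.10 ± 1.55 for APOA1, 0.431 ± 0.610 for APOA2, 0.418 ± 0.592 for APOC1, 0.135 ± 0.177 for APOB and 0.0566 ± 0.0801 for APOH (SD, n = 2 each). In each of these the SD exceeded the mean, since one siNC library was at or near 0. APOC3 and MTTP were listed at 0 in both siNC libraries. The median over the 10 members was 0.425 TPM. A library shows a level of 3 counts at between 0.169 and 0.210 CPM, the count scaled to a TMM-normalised library of 1000000 reads, and lower levels were not measurable here.

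**Figure D1:**
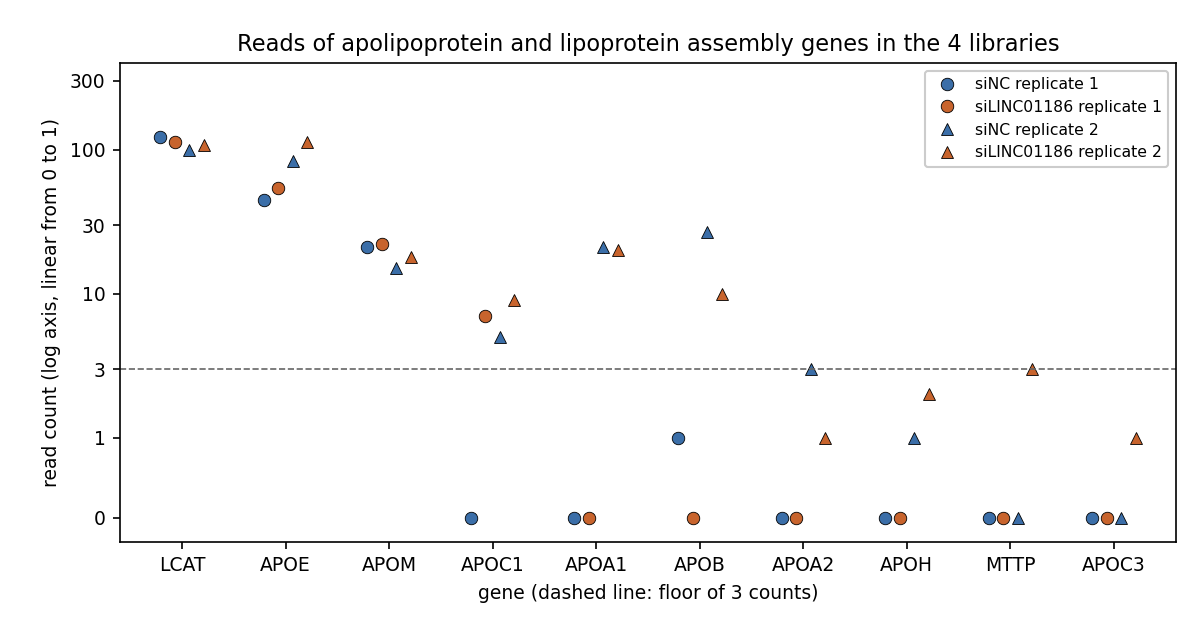
Read counts (log axis, linear from 0 to 1) of the 10 genes in the 4 libraries, with circles for replicate 1, triangles for replicate 2, blue for siNC, orange for siLINC01186 and the floor of 3 counts dashed. LCAT, APOE and APOM lie above the floor in every library, and APOA1 and APOB rise above it only in the replicate 2 libraries.

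MTTP and APOB form the core of very-low-density lipoprotein assembly. MTTP (chr4:100485235-100545154, plus strand, hg19) had 0 counts in siNC replicate 1, siLINC01186 replicate 1 and siNC replicate 2, and 3 counts in siLINC01186 replicate 2. It was thus at or under the floor in every library, where a count of 0 allows at most 0.179 CPM in siNC replicate 1. APOB (chr2:21224301-21266945, minus strand) had 1 and 0 counts in siNC and siLINC01186 replicate 1, and 27 and 10 counts in siNC and siLINC01186 replicate 2. The longest of the member genes at 14121 bases in the deposited length column, it reached at most 0.260 TPM. P4HB, which pairs with MTTP in the transfer complex and has other roles as a protein disulfide isomerase, had 11214 to 14181 counts and 592 to 647 TPM. P4HB was singled out after its values were seen.

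Of the proteins of high-density lipoprotein, APOA1 (chr11:116706467-116708666, minus strand) had 0 counts in both replicate 1 libraries, 21 in siNC replicate 2 and 20 in siLINC01186 replicate 2. The antisense gene APOA1-AS shares 1834 bases with it and had 3 to 8 counts. Because the kit named in the methods does not mark strand, reads of the overlap cannot be assigned. APOA2 (chr1:161192083-161193418, minus strand) was at 0 in replicate 1, with 3 counts in siNC and 1 in siLINC01186 replicate 2. LCAT (chr16:67973787-67978015, minus strand) had 122 and 113 counts in siNC and siLINC01186 replicate 1, and 99 and 108 in siNC and siLINC01186 replicate 2. It shares 639 bases on the same strand with SLC12A4, a potassium-chloride cotransporter with 1014 to 1408 counts, so that its count is uncertain to the extent that reads of the shared stretch were split. APOM (chr6:31620187-31625987, plus strand) had 21, 22, 15 and 18 counts in siNC 1, siLINC01186 1, siNC 2 and siLINC01186 2, and shares 291 bases with BAG6, a gene on the opposite strand with 4627 to 6065 counts. Of these HDL genes, APOA1 was thus above the floor only in replicate 2, and LCAT and APOM were above it in every library. The APOM count is uncertain where it overlaps BAG6, since strand is not marked. APOA2 did not exceed the floor in any library and cannot be sorted by replicate.

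Among the exchangeable apolipoproteins, APOE (chr19:45409006-45412652, plus strand) had 45, 54, 84 and 113 counts in siNC 1, siLINC01186 1, siNC 2 and siLINC01186 2. Its neighbour APOC1 (chr19:45417504-45422606, plus strand), an inhibitor of cholesteryl ester transfer, had 0, 7, 5 and 9 counts in the same order. APOC3 (chr11:116700624-116703787, plus strand), an inhibitor of lipoprotein lipase and remnant uptake, had 1 count in siLINC01186 replicate 2 and 0 elsewhere. APOE was the only one of the 3 above the floor in every library. APOH (chr17:64208147-64225556, minus strand), or beta-2-glycoprotein I, a phospholipid-binding plasma protein, had 0, 0, 1 and 2 counts. Over all 10 genes, 14 of 40 values were 0, and 5 genes (APOA1, APOA2, APOC3, APOH and MTTP) had no count in either replicate 1 library.

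The comparison the study was designed for sets siLINC01186 against siNC. Of the 10 genes, 6 had at least 5 counts summed over the 4 libraries and entered the fit across all 23942 such genes, and APOA2, APOC3, APOH and MTTP did not. None of the 6 was called by edgeR's quasi-likelihood test at the study's limits, a log2 fold change beyond 1 with an unadjusted p under 0.05, which 181 genes (0.756%) passed. None had an unadjusted p under 0.05, against 1.21% of all genes tested. At a Benjamini-Hochberg adjusted p under 0.05 no gene (0%) was called in this comparison, whose fit had no block for the replicate number. DESeq2's Wald test called 1, and edgeR's test with the replicate number as a block called 278. Without the block the smallest adjusted p over all genes was 0.231. Its p-values measure the spread between these libraries, which includes the difference between the replicate numbers. For siLINC01186 that spread also includes the difference between the oligos.

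LCAT was at 6.71 ± 0.814 CPM (SD, n = 2) in siNC and 6.99 ± 1.30 CPM (SD, n = 2) in siLINC01186 with overlapping libraries. The fitted log2 fold change of 0.06 had a standard error (SE) of 0.30 (edgeR's quasi-likelihood test, unadjusted p = 0.852). The ratio of the summed counts, scaled to library size, was 1.03 with a 95% interval of 0.848 to 1.24, which covers counting error only. With limma on log2(TPM + 1) the sign turned to a log2 difference of -0.11, and on TPM rescaled without MIR6087 it was 0.031, so no direction is given for LCAT.

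APOE was at 3.94 ± 1.78 CPM in siNC and 5.07 ± 1.82 CPM in siLINC01186 (SD, n = 2 each). The siLINC01186 library was the higher of the same-numbered libraries in both replicates, by 0.47 in replicate 1 and 0.28 in replicate 2 on the log2 CPM scale with a prior count of 2. The groups nevertheless overlapped, since siNC replicate 2 (5.20 CPM) lay above siLINC01186 replicate 1 (3.78 CPM). The fitted log2 fold change was 0.37 (SE 0.42, unadjusted p = 0.408), and the rate ratio of the summed counts was 1.33 with a counting interval of 1.05 to 1.68. Without siNC replicate 1 the log2 fold change was -0.032, and without siLINC01186 replicate 2 it was -0.065. APOM gave a log2 fold change of 0.21 (SE 0.50, unadjusted p = 0.682), with within-number log2 CPM differences of 0.27 and 0.11.

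APOC1 was the one member whose siRNA groups did not overlap, with 0.310 CPM at most in siNC and 0.490 and 0.506 CPM in siLINC01186. Groups that do not overlap in either direction were found in 26.0% of all genes tested. The fitted log2 fold change was 1.66 (SE 1.10, unadjusted p = 0.169), on 5 counts in siNC and 16 in siLINC01186. The within-number log2 CPM difference was 2.32 in replicate 1, where siNC had 0 counts, and 0.54 in replicate 2. With siNC replicate 2 left out, the gene passed the study's limits with an unadjusted p of 0.0100, and its fold was then taken against a library at 0 counts.

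APOB had 10 counts in siLINC01186 against 27 in siNC in replicate 2, and 0 against 1 in replicate 1, both under the floor and with no direction shown. The fitted log2 fold change was -1.50 (SE 1.32, unadjusted p = 0.285). The rate ratio was 0.366 with a counting interval of 0.159 to 0.777, and 37 of the 38 counts lay in replicate 2. APOB passed the study's limits without siNC replicate 1 (log2 fold change -2.45, unadjusted p = 0.0127) and without siLINC01186 replicate 2 (-6.77, unadjusted p = 0.0339), and its sign turned without siNC replicate 2 (2.18). It also passed when genes with at least 1 count in any library were kept (unadjusted p = 0.0434). Its adjusted p lay between 0.585 and 1.00 over all alternatives. APOA1, with 21 counts in siNC replicate 2 against 20 in siLINC01186 replicate 2, had a log2 fold change of -0.13 (SE 1.41, unadjusted p = 0.927). Without siNC replicate 2 APOA1 passed the study's limits in the opposite direction (log2 fold change 6.28, unadjusted p = 0.00487), the lone siNC library being at 0 counts, and without siLINC01186 replicate 1 the value was 0.80.

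**Figure D2:**
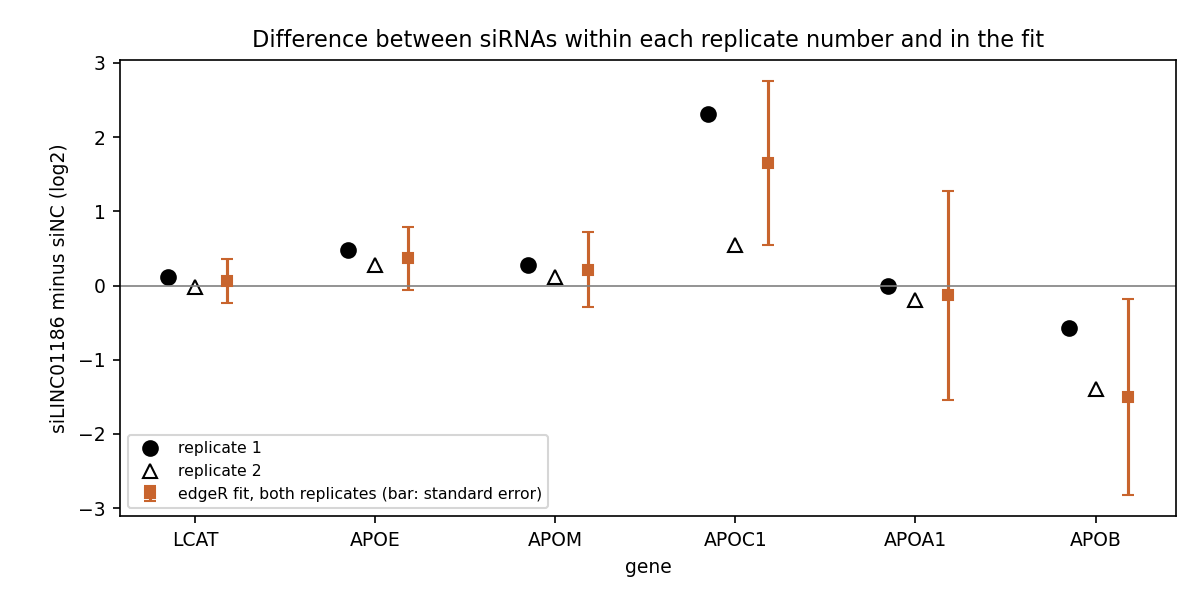
Difference of siLINC01186 minus siNC for the 6 members in the fit, as log2 CPM with a prior count of 2 within replicate 1 (filled circles) and replicate 2 (open triangles), and as the log2 fold change of edgeR's fit over both with its standard error (orange squares). LCAT, APOE and APOM lie within 0.5 of 0, and the fitted values of APOC1 and APOB have standard errors of 1.10 and 1.32, their replicate 1 points resting on siNC counts of 0 and 1.

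The second comparison sets the replicate numbers against each other. APOA1, APOB and APOE were higher in the replicate 2 than in the replicate 1 libraries, in siNC and in siLINC01186 alike, and passed an adjusted p under 0.05 in edgeR's quasi-likelihood test. That threshold was passed by 2158 genes (9.01%), 1064 higher and 1094 lower, and an unadjusted p under 0.05 by 23.4%. In bulk RNA, fewer cells that express a gene and less of its RNA per cell cannot be told apart. The libraries of the replicates did not overlap in 52.6% of genes in either direction. APOA1 and APOB entered the fit only through their replicate 2 counts and so had to differ, and their calls are given as values and support nothing further.

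APOA1 was at 0 CPM in both replicate 1 libraries and at 1.30 and 1.13 CPM in siNC and siLINC01186 replicate 2. The replicate 2 mean of 1.21 CPM was at least 6.24-fold higher than the mean floor of the replicate 1 libraries. Within siNC the bound was at least 7.26-fold and within siLINC01186 at least 5.36-fold, each against the floor of its own replicate 1 library and with the replicate 2 count taken as measured. The exact 95% lower limits of the rate ratio, which carry the counting error of both sides, were 5.40 and 3.97. The adjusted p was 0.00219 (edgeR's quasi-likelihood test), and limma on log2(TPM + 1) gave an adjusted p of 0.156, or 0.0836 on TPM without MIR6087. APOB had 1 count in replicate 1 and 37 in replicate 2, a rate ratio of 33.9 with a counting interval of 5.71 to 1373. Its adjusted p was 0.00943 in edgeR's test, 0.0614 without siNC replicate 2 and 0.483 with limma on log2(TPM + 1) (0.380 on TPM without MIR6087), a scale that compresses values this low.

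APOE rose from 2.69 and 3.78 CPM in siNC and siLINC01186 replicate 1 to 5.20 and 6.36 CPM in replicate 2, and the replicates did not overlap. The fitted log2 fold change was 0.85 (SE 0.25, adjusted p = 0.0479 in edgeR's quasi-likelihood test), and the rate ratio was 1.82 with a counting interval of 1.42 to 2.34. The log2 CPM difference was 0.92 within siNC and 0.73 within siLINC01186. The call was lost with DESeq2's Wald test (adjusted p = 0.151), with edgeR's expression filter (0.0619), without siNC replicate 1 (0.313), without siLINC01186 replicate 2 (0.137) and with limma on log2(TPM + 1) (0.237, or 0.154 on TPM without MIR6087), while the direction stayed in all alternatives run for APOE.

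LCAT and APOM had the opposite order, with both replicate 2 libraries below both replicate 1 libraries. LCAT was at 7.28 and 7.91 CPM in replicate 1 and 6.13 and 6.08 CPM in replicate 2, with a log2 fold change of -0.31 and a standard error of 0.20 (adjusted p = 0.388, edgeR's quasi-likelihood test). APOM was at 1.25 and 1.54 CPM in replicate 1 and 0.929 and 1.01 CPM in replicate 2, with a log2 fold change of -0.51 and a standard error of 0.41 (adjusted p = 0.504). Neither difference passed the test, and neither changed sign in the alternatives that gave an adjusted p. APOC1 overlapped between replicates, at 0 and 0.490 CPM against 0.310 and 0.506 CPM (log2 fold change 0.81, standard error 1.01, adjusted p = 0.693).

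The 4 members below the filter held 0 counts in replicate 1 and 1 to 4 counts in replicate 2, namely APOA2 with 4, APOH with 3, MTTP with 3 and APOC3 with 1. Single values of this size cannot be told from 0 at this depth. APOA1, APOA2, APOB, APOC3, APOH and MTTP, a grouping chosen after the values were seen, summed to 1 and 0 counts in siNC and siLINC01186 replicate 1 and to 52 and 37 in replicate 2. APOA1 and APOB held 21 and 27 of the 52 and 20 and 10 of the 37. The sum therefore shows no shift of the other genes in it. The sum over all 10 members was 189, 196, 255 and 285 counts in siNC 1, siLINC01186 1, siNC 2 and siLINC01186 2.

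Part of the secreted liver markers shifted with the replicate number beside APOA1 and APOB. The summed level of the 7 secreted or oncofetal markers was 0.179 and 0.630 CPM in siNC and siLINC01186 replicate 1, and 4.27 and 3.15 CPM in replicate 2. ALB, TF and SERPINA1 had 0 or 1 count in each replicate 1 library and 7 to 26 in each replicate 2 library. Like APOA1 and APOB they entered the fit only through replicate 2, so their test is not given. AFP had 2, 4, 6 and 16 counts and FGB 0, 1, 3 and 4 in siNC 1, siLINC01186 1, siNC 2 and siLINC01186 2. TTR had 3 counts in siLINC01186 replicate 2 alone. GPC3 had 1, 2, 2 and 0 counts in the same order and did not share the shift. KRT8 and KRT18 had adjusted p-values of 0.185 and 0.213 in edgeR's quasi-likelihood test. A list of 7 fibroblast or stellate markers summed to 59.2 and 55.4 CPM in replicate 1 and to 95.02 and 98.5 CPM in replicate 2. All 7 were above the floor in every library. COL1A1, PDGFRB and ACTA2, 3 of the 7, were called higher, beside 9.01% of all genes called in either direction. COL3A1 and DCN (log2 fold changes 0.53 and 0.56) and COL1A2 and LUM (-0.03 and 0.22) were not called. The 4 endothelial markers summed to 2.03 to 3.57 CPM and the 5 leukocyte or macrophage markers to 51.2 to 55.6 CPM, of which CD68 alone gave 50.1 to 55.0 CPM. PTPRC and CD163 had at most 2 counts in any library. All 5 enterocyte markers, APOA4 and APOBEC1 among them, were at or under the floor. The part of these shifts in the values of APOA1, APOB and APOE was not tested.

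**Figure D3:**
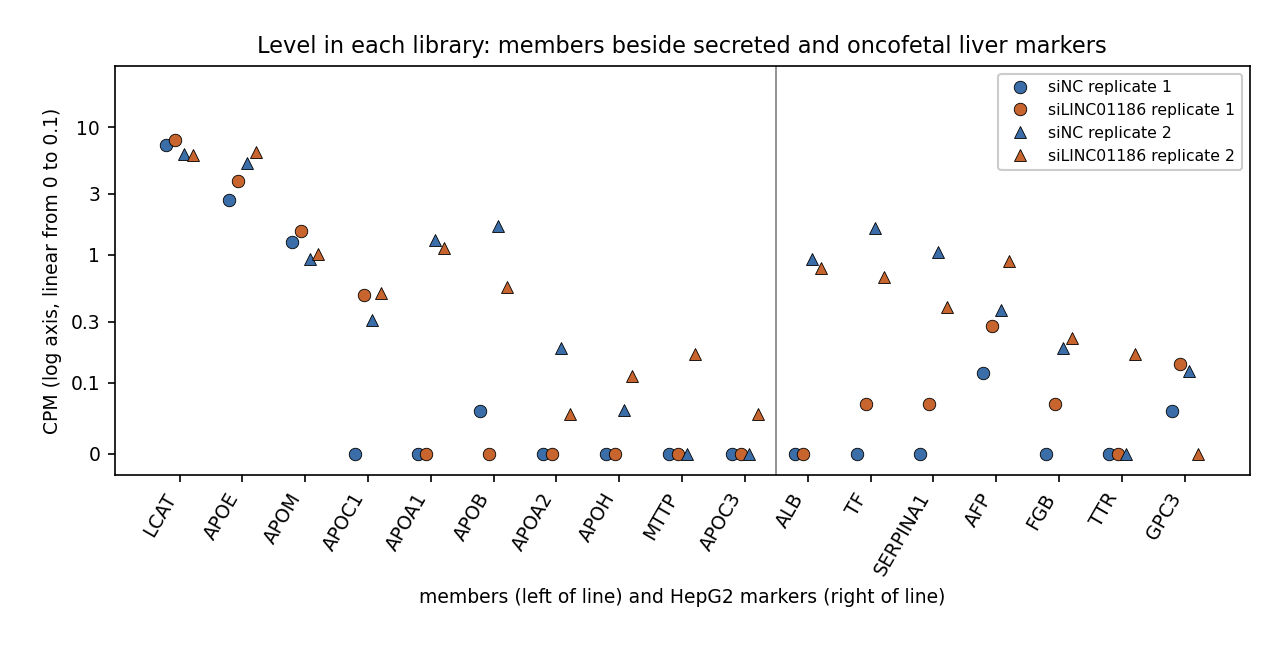
Level in CPM (log axis, linear from 0 to 0.1) of the 10 members, left of the line, and of 7 secreted or oncofetal HepG2 markers, right of the line, in the 4 libraries, with circles for replicate 1 and triangles for replicate 2. APOA1 and ALB lie at 0 in both replicate 1 libraries and at 0.788 to 1.30 CPM in the replicate 2 libraries, and LCAT and APOM do not show this order.

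Other genes of lipoprotein metabolism were taken from 5 lists of 71 genes in all, of which 59 passed the filter. Between the siRNAs 1 of the 59 (1.69%, beside 1.21% of all genes tested) had an unadjusted p under 0.05 in edgeR's test. That gene, NR1H4, passed the filter only through its siLINC01186 counts. None had an adjusted p under 0.05, and the median log2 fold change was -0.03 beside 0.0045 over all genes. Between the replicates 21 of the 59 (35.6%, beside 23.4% of all genes) had an unadjusted p under 0.05, 16 higher and 5 lower in replicate 2. An adjusted p under 0.05 was reached by 9 (15.3%, beside 9.01%), with a median log2 fold change of 0.13 beside 0.02 over all genes. The list genes were better counted than the background, since 50 of the 59 passed edgeR's expression filter, beside 16848 of all 23942 genes. The shares are therefore not at like expression levels.

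Of 14 other apolipoproteins and related genes, 9 were at or under 3 counts in every library. These were APOA4, APOA5, APOC2, APOC4, APOF, APOL3, APOL4, LPA and APOBEC1, the last the editing enzyme that makes the short intestinal form of APOB. CLU, or apolipoprotein J, an extracellular chaperone made by many cell types, had 3615, 3189, 4666 and 4798 counts in siNC 1, siLINC01186 1, siNC 2 and siLINC01186 2 and 123 to 192 TPM, above every one of the 10 members. It was higher in replicate 2 by a log2 fold change of 0.35 with a standard error of 0.11, short of the threshold (adjusted p = 0.0630, edgeR's quasi-likelihood test). APOL1, a trypanolytic factor of high-density lipoprotein, had 12, 7, 29 and 22 counts in the same order (adjusted p = 0.0932 between replicates). APOL6 and APOL1 had the smallest p-values of this list between the siRNAs, 0.422 and 0.453. None of the 14 passed the adjusted threshold in either comparison.

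Of the 15 assembly and secretion partners, 12 were above the floor in every library, unlike MTTP and APOB. TM6SF2, PLA2G12B and SOAT2 were at or under it. SORT1, a sorting receptor for APOB, had 576 and 350 counts in siNC and siLINC01186 replicate 1 and 942 and 733 in replicate 2. It was the one gene of this list called higher in replicate 2 at an adjusted p under 0.05 (log2 fold change 0.75, standard error 0.18, adjusted p = 0.0179, edgeR's quasi-likelihood test). Between the siRNAs its log2 fold change was -0.49 (unadjusted p = 0.146). SURF4, a cargo receptor for lipoprotein export from the endoplasmic reticulum, had 7063 to 9289 counts and a log2 fold change of -0.35 between replicates (adjusted p = 0.0507). SOAT1, which esterifies cholesterol, had 2716, 2282, 3334 and 1336 counts in siNC 1, siLINC01186 1, siNC 2 and siLINC01186 2. Its difference between siRNAs was a log2 fold change of -0.65 (SE 0.32, unadjusted p = 0.0738), and the within-number log2 CPM difference was -0.02 in replicate 1 and -1.46 in replicate 2.

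Among 9 genes of HDL formation and remodelling, ABCA1 and ABCG1 were the genes called higher in replicate 2 at an adjusted p under 0.05. At an unadjusted p under 0.05, 3 were higher and 0 lower. The third, PLTP, had a log2 fold change of 0.62 (adjusted p = 0.0596, edgeR's quasi-likelihood test). ABCA1, which passes cholesterol to APOA1, had 61 and 27 counts in siNC and siLINC01186 replicate 1 and 146 and 130 in replicate 2 (log2 fold change 1.54, standard error 0.28, adjusted p = 0.00333, edgeR's quasi-likelihood test). ABCG1, which exports cholesterol to mature HDL, had 59 and 49 counts in replicate 1 and 251 and 195 in replicate 2 (log2 fold change 1.93, standard error 0.23, adjusted p = 0.000211 in edgeR's quasi-likelihood test). Neither overlapped between replicates. SCARB1, the HDL receptor, had 3443 to 4462 counts and the smallest p of this list between the siRNAs (log2 fold change -0.23, unadjusted p = 0.238). The list's ABCG5, ABCG8 and LIPC were at or under the floor.

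Of 12 receptors, lipases and their regulators, 11 passed the filter. LRP1, a receptor of APOE-bearing remnants, had 7436 and 6796 counts in siNC and siLINC01186 replicate 1 and 11554 and 10521 in replicate 2. It rose between replicates by a log2 fold change of 0.51 with a standard error of 0.12 (adjusted p = 0.0139, edgeR's quasi-likelihood test). SDC1, a heparan sulfate proteoglycan that binds remnants, fell by 0.43 on the log2 scale (adjusted p = 0.0289, edgeR's quasi-likelihood test). LRP8, which also binds APOE, had 3454, 2450, 2599 and 2379 counts in siNC 1, siLINC01186 1, siNC 2 and siLINC01186 2, and its log2 fold change between siRNAs was -0.27 (unadjusted p = 0.243).

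Of 21 transcription factors of liver and lipid genes, HNF4A, PPARA and CREB3L3 were called higher in replicate 2 at an adjusted p under 0.05. At an unadjusted p under 0.05 in edgeR's test, 7 were higher and 1 was lower. HNF4A, a nuclear receptor that drives many apolipoprotein genes, had 79 and 83 counts in siNC and siLINC01186 replicate 1 and 161 and 188 in replicate 2 (log2 fold change 0.97, standard error 0.20, adjusted p = 0.00821, edgeR's quasi-likelihood test). CREB3L3, a membrane-bound factor of liver and intestine, had 22 and 17 counts in replicate 1 and 91 and 127 in replicate 2 (log2 fold change 2.34, standard error 0.28, adjusted p = 0.000247), and PPARA, a fatty acid sensor, rose by a log2 fold change of 0.63 (adjusted p = 0.0121, edgeR's quasi-likelihood test). HNF4A is also on the HepG2 marker list, and its siNC and siLINC01186 libraries overlapped. NR1H4, the bile acid receptor FXR, was the one list gene with an unadjusted p under 0.05 between the siRNAs (0.0367 in edgeR's test). It had 0, 1, 0 and 8 counts in siNC 1, siLINC01186 1, siNC 2 and siLINC01186 2. NR1H4 entered the fit only through its siLINC01186 counts and so had to be higher there, and its p supports nothing further. It was not tested under edgeR's expression filter. SREBF1, which drives lipid synthesis, followed with a log2 fold change of -0.34 (unadjusted p = 0.0939). FOXA2 and NR0B2 were at or under the floor. STAT5A, the factor of the study, had 1664 to 2217 counts and a log2 fold change of -0.14 between the siRNAs (unadjusted p = 0.436), and was singled out for the study's interest in it.

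**Figure D4:**
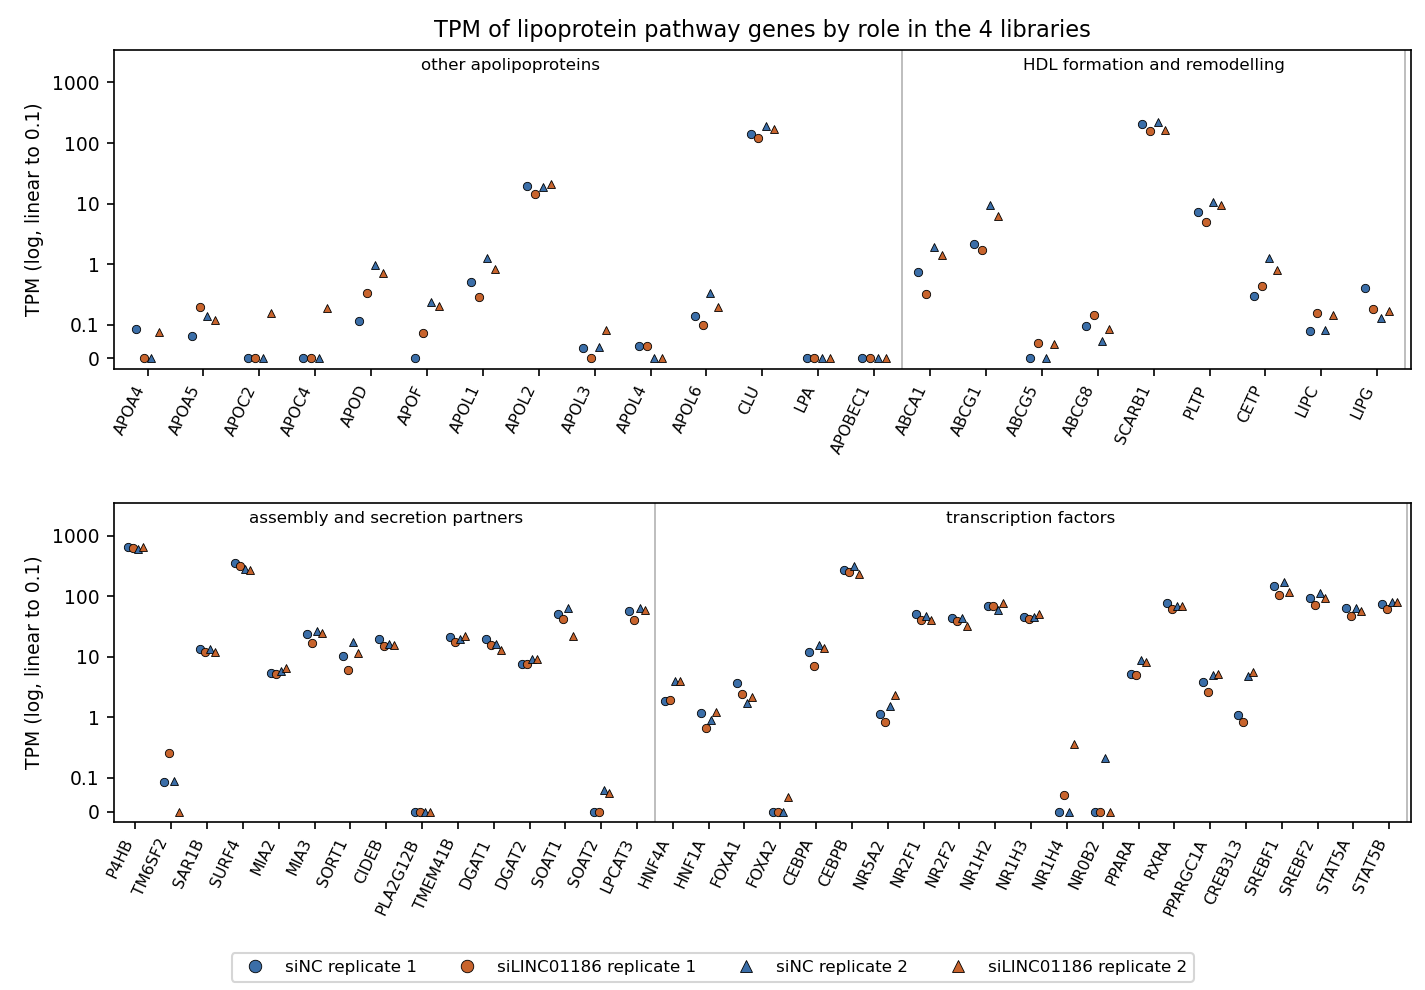
TPM (log axis, linear from 0 to 0.1) of the 59 genes of 4 of the lists in the 4 libraries, with circles for replicate 1, triangles for replicate 2, blue for siNC and orange for siLINC01186. P4HB, CLU and SCARB1 lie above 100 TPM in every library, and 17 genes, 9 of them on the list of other apolipoproteins, lie at or under 3 counts throughout.

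The 3′UTR of the members was also searched for sites that pair with the seed of either strand of siSALIS_02, one of the oligos of the study. The letters TCACTTA and ACTGCAT were in the longest annotated 3′UTR of 11.2% and 12.4% of 19095 genes of GENCODE release 29, and in 0 of the 10 members. Which libraries received this oligo is not in the labels, and no such letters in these 3′UTRs says nothing of other sites.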

How the data were processed

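Read counts and TPM were taken from 4 libraries of cells labelled HepG2, 2 with siNC and 2 with siLINC01186, grouped by the treatment and numbered by the titles in the labels. The authors deposited an unnormalized read count per gene for each library. The authors also deposited TPM, which equals the count per gene length scaled to 1000000 per library within 2.91e-05 TPM. The submitters' processing notes name the build hg19 and the tools HISAT2, HISAT, TopHat2 and Bowtie2 with no role or version. The counting program, its use of strand and the annotation are not given in the sources used here. Library construction enriched poly(A) RNA and used a kit that does not mark strand. A count that shares bases with a neighbouring gene is therefore uncertain.

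The tables hold 44591 genes, and 23942 of them reached 5 counts over the 4 libraries together. These were scaled by TMM and tested with the quasi-likelihood test of edgeR 4.0.16 in R 4.3.3, with no block and with Benjamini-Hochberg adjustment over every gene tested. The siRNA comparison was called at the study's limits and the replicate comparison at an adjusted p under 0.05. The standard error is the log2 fold change over the square root of the F statistic. CPM is the count scaled to 1000000 reads of the TMM-scaled library, and log2 CPM adds a prior count of 2, which understates differences of low genes. Rate ratios have exact conditional 95% intervals (SciPy 1.17.1 in Python 3.11.15) that cover counting error only, and so do the floors of 3 counts per library. A fold against libraries at 0 was taken against the mean floor of those libraries. Total counts of 14968958 to 17297245 limit the precision of genes with few reads.

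The alternatives were DESeq2 1.42.0 (its size factors in edgeR, and its Wald test), a filter of 1 count in any library or the expression filter of edgeR, a block for the replicate number or the siRNA, leaving out each library, and limma 3.58.1 on log2(TPM + 1) or log2(TPM + 0.1) and on TPM without MIR6087. Levels were also taken as CPM per kb. The fits were also run on simulated counts in which only well-counted genes were changed. That run does not bear on members with few counts. The members and the gene lists were chosen with earlier results of these data known. The text names all members and, from each of the 5 lists, the 2 genes with the smallest unadjusted p in each comparison, every gene with an adjusted p under 0.05, and genes at the floor. Results for some genes that this rule covers are not reported here. Promoters were taken from RefSeq (GRCh38.p14) and 3′UTRs from GENCODE release 29. The deposited positions are in hg19, another build, and no coordinates were converted. The 10 member starts therefore cannot be compared with the RefSeq starts.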

Additional observations from a re-analysis of the deposited data

How the results depend on the processing

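Of the member values between replicates, 48 of 60 over the alternatives kept their direction and their side of the threshold. A further 11 lost the call (those of APOA1, APOB and APOE given above) and 1 changed sign. The 60 leave out DESeq2's Wald test for APOA1, APOB, APOC1 and APOM, where it gave no adjusted p. APOB and APOC1 did not pass edgeR's expression filter and have no value there in either comparison. Between the siRNAs 55 of 70 kept both and 10 changed sign, and 6 passed the study's limits, 4 for APOB, 1 for APOC1 and 1, with a changed sign, for APOA1. LCAT turned to -0.11 with limma at a pseudocount of 1 and to -0.12 at 0.1. Over the fits without 1 library, the log2 fold changes between siRNAs ran from -6.36 to 6.28 for APOA1, -6.77 to 2.18 for APOB, -0.065 to 0.93 for APOE, -0.11 to 0.49 for APOM and -0.14 to 0.23 for LCAT, and between replicates from -0.25 to 5.82 for APOC1. With 1 library left out, the lone library of a group is assumed to vary like the others.

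The number of genes called between the siRNAs at the study's limits, 181, became 27 with DESeq2's Wald test, 46 with edgeR's expression filter and 248 to 375 without 1 library. Without siNC replicate 2 the 375 were 282 higher and 93 lower, and without siLINC01186 replicate 2 the 282 were 81 higher and 201 lower. At an adjusted p under 0.05 the count of 0 became 1 with the Wald test, 5 with at least 1 count in any library and 0 to 6 without 1 library. The 1 list gene at an unadjusted p under 0.05 became 0 with the expression filter, 3 with at least 1 count and 2 to 3 without 1 library. Between replicates, 1309 genes at the study's limits became 655 with the Wald test, and 2158 at an adjusted p under 0.05 became 4191 with the siRNA as a block and 1294 to 3332 without 1 library (lowest without siLINC01186 replicate 1, highest without siNC replicate 2). The cause was not tested.

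By the labels, same-numbered libraries share only that number. Their counts were nonetheless closer to each other, with a mean chi-square per gene of 11.2 in replicate 1 and 12.9 in replicate 2. Pairs of libraries with different numbers gave 23.4 to 31.3. With a replicate block, 278 genes passed the adjusted p between the siRNAs in place of 0, 12 list genes had an unadjusted p under 0.05, and APOB passed the study's limits (log2 fold change -1.62, unadjusted p = 0.0451, adjusted p = 0.585). No other member's call changed under the block. Over 16848 genes, the difference between replicates in siNC and that in siLINC01186 correlated with r = 0.563, a description across genes, and the first principal component, with 62.4% of the variance, separated the numbers. Levels taken as CPM per kb were on another scale and moved, at 4.95 for LCAT, 2.70 for APOE and 1.20 for APOM, in the same order.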
